A study of Mus musculus with 9 samples.

Results

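Fabp3, Fabp4, Fabp5, Crabp1 and Crabp2 encode small cytosolic carriers of fatty acids and of retinoic acid, and their 5 rows were taken by symbol from a table of 53607 rows. They were chosen by their membership of the intracellular lipid binding protein family with earlier results of the same age comparisons known, so their differences between ages are given as descriptions with standard errors and without a test. Where the fit across all genes called a member, the call is no evidence about that member. Of the 5 genes, 4 reached 1 TPM in at least 3 of the 9 libraries and entered the fit across 14501 genes, and Crabp1 did not. The TPM unit gives each transcript's share of a fixed library total after division by its length, which allows levels of different genes to be compared. The table holds log2(TPM + 1), and differences between ages are on that scale unless TPM is named.

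RNA was sequenced from mouse skeletal stem cells, progenitors that give rise to cartilage, bone and stroma, sorted 10 days after fracture from the callus of the femur. All mice were C57BL/6J, and no treatment other than the fracture is named. The 3 groups differ in age, with 3 libraries each: adult mice were 2 months old, middle-aged mice 12 months and aged mice 24 months. Cells of every group were sorted as positive for the integrin ITGAV and negative for THY1, 6C3, CD105, TIE2, CD45 and TER119, with 500 to 1000 cells per library, and no group without a fracture was used here. The labels do not say whether the libraries of an age came from separate animals, so errors and p-values cover the spread from library to library alone, which may be technical.

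Proteins of this family fold into a small barrel that holds 1 hydrophobic ligand and carries it through the cytosol. The fatty acid binding proteins move fatty acids between membranes, enzymes and the nucleus, where fatty acids are ligands of the PPAR receptors. CRABP2 delivers retinoic acid to its nuclear receptors, FABP5 can carry retinoic acid to PPARD, while CRABP1 holds retinoic acid in the cytosol. FABP4 is best known from adipocytes, macrophages and some endothelial cells, and FABP3 from heart and skeletal muscle.

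Promoters are shown because they are the stretch of DNA next to each gene's start, and 2 of the 5 genes, Fabp3 and Crabp1, matched the RefSeq promoter table of build GRCm38.p6, which holds 250 bases before and 50 bases after a start. Fabp4, Fabp5 and Crabp2 had no entry. The capitals mark the GC box GGGCGG or its reverse complement CCGCCC. The Fabp3 window, on the plus strand, is chr4:130308488-130308787, and the Crabp1 window, also on the plus strand, is chr9:54764498-54764797.
Fabp3: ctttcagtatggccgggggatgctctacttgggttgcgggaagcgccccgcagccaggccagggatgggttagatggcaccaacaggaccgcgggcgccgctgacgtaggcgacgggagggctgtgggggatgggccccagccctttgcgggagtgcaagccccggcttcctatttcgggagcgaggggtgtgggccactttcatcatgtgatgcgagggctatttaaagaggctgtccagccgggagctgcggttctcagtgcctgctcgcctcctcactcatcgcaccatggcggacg
Crabp1: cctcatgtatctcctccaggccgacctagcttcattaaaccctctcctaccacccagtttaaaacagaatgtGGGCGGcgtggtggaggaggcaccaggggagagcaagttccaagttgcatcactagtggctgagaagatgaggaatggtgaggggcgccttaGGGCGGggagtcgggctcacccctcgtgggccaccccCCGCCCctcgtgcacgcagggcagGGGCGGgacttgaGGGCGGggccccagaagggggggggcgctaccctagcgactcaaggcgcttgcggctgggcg
The Crabp1 window held 5 GC boxes, at positions -178, -86, -49, -25 and -12 from the start, and the Fabp3 window held none. A GC box was present in 35.7% of the 32851 promoters of the table. Neither window held AGGTCA or TGACCT, the letters of a nuclear receptor site (present in 16.3% of promoters), or the TATA box TATAAA or its reverse TTTATA (13.6%). Both strands were read, and no motif lies within another. GC content was 65% in both windows, against a median of 52.7% over all promoters, and they held 22 (Fabp3) and 17 (Crabp1) CpG dinucleotides against a median of 7. A match is a description of these letters and not a bound site.

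Each of the 9 libraries reached 1 TPM in 13387 to 13813 genes. At 24 months, library 1 differed from the others, since its average r across genes with them was 0.932 (0.953 to 0.962 for the rest) and it listed 33313 rows at 0 (29284 to 31082 for the rest). Member values without it are given below. Library numbers follow the order of columns within an age and pair nothing across ages. Itgav, Ptprc and the other genes of the sort gate with a row (6 of 7) summed to 44.6 to 54.0 TPM at 2 months, 35.1 to 40.1 at 12 months and 30.2 to 57.3 at 24 months. Most of this was Itgav, the positive gate, at 41.7 to 50.1, 26.5 to 36.0 and 25.2 to 48.2 TPM. Of the negative gate, Eng (CD105) stood at 1.01 to 1.29 TPM at 2 months and 1.56 to 4.08 TPM at 24 months. Thy1 stood at 1.11 to 1.540 and 1.542 to 4.27 TPM. Both were thus higher without overlap, as 11.2% of all genes were, and neither was called. Ptprc, Tek and Enpep overlapped.

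The fatty acid carriers Fabp4 and Fabp5 and the retinoic acid carrier Crabp2 stood higher at 12 and at 24 months than at 2 months, without overlap of the libraries. Fabp4 was the member with the widest difference at 12 months, a ratio of mean TPM of 5.23 to 2 months, and Crabp2 at 24 months, a ratio of 4.71. Fabp3 was lowest at 12 months, and Crabp1 was listed at or near 0 at every age. Of the 4 genes tested, the 3 genes Fabp4, Fabp5 and Crabp2 were called higher in 24 against 2 and in 12 against 2 months, none was called lower, and none was called in 24 against 12 months. Among all genes tested, 0.0896% were called higher and 0.069% lower in 24 against 2 months (limma, Benjamini-Hochberg adjusted p under 0.05), 0.262% and 0.462% in 12 against 2 months, and 0.152% and 0.303% in 24 against 12 months. Since the choice of members used the same comparisons, nothing is read from these counts. In bulk samples, fewer cells of a type and less RNA per cell cannot be told apart.

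**Figure D1:**
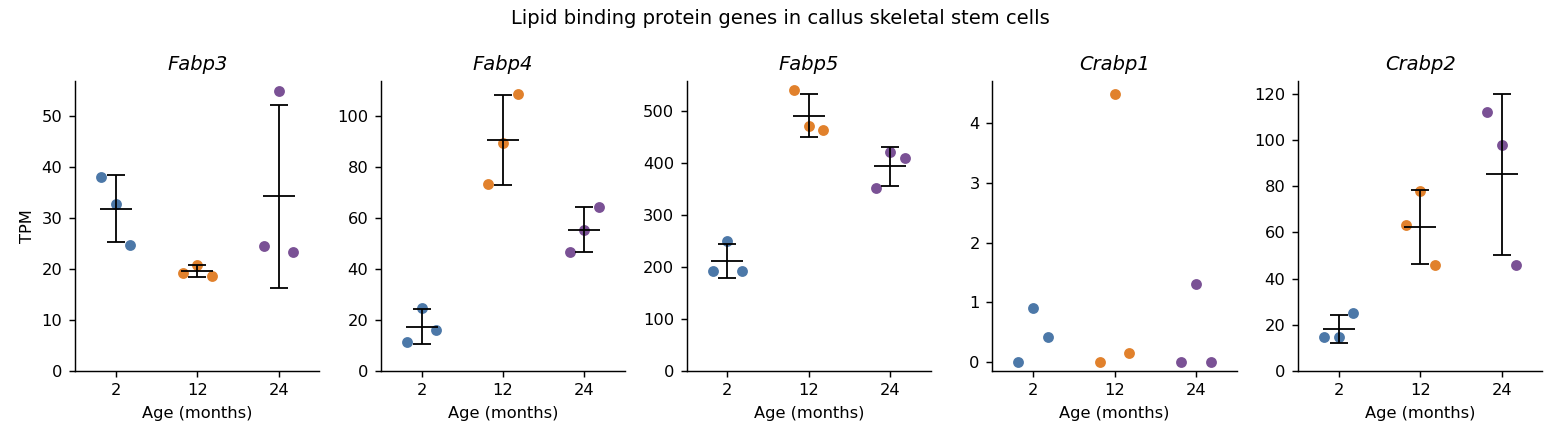
Level of the 5 genes in TPM (vertical axis, linear, separate scale per gene) against age in months, 1 point per library, with the mean and SD of 3 libraries for 4 genes and points alone for Crabp1. The 12 and 24 month points of Fabp4, Fabp5 and Crabp2 lie above every 2 month point, while Fabp3 is lowest at 12 months.

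Fabp5, the epidermal type fatty acid binding protein, was the most abundant of the 5 in every library. Its gene lies at chr3:10012548-10016607 on the plus strand (ENSMUSG00000027533.10, GRCm38, GENCODE M21) and has 4 exons. It stood at 193, 249 and 192 TPM in the 3 libraries of 2 months, at 540, 472 and 463 TPM at 12 months, and at 351, 422 and 410 TPM at 24 months. The 3 ages did not overlap at any step, with 12 months highest, 24 months between and 2 months lowest. Means were 211 ± 32.8, 491 ± 42.1 and 394 ± 37.6 TPM (SD, n = 3). The difference was 1.22 ± 0.15 (SE) in 12 against 2 months, 0.90 ± 0.15 in 24 against 2 months and -0.32 ± 0.15 in 24 against 12 months. Ranked by TPM among the 14501 genes, Fabp5 lay between places 701 and 844 at 2 months, 340 and 403 at 12 months, and 441 and 534 at 24 months.

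Fabp4, the adipocyte type fatty acid binding protein, lies on the same chromosome at chr3:10204088-10208576 on the minus strand (ENSMUSG00000062515.3, 4 exons). Its values were 11.3, 24.7 and 15.9 TPM at 2 months, 73.2, 89.5 and 109 TPM at 12 months, and 46.5, 55.4 and 64.1 TPM at 24 months. Again no library of an age reached into the range of another, and the order of the ages was that of Fabp5. Means were 17.3 ± 6.83, 90.4 ± 17.8 and 55.3 ± 8.76 TPM (SD, n = 3). The difference was 2.37 ± 0.26 (SE) in 12 against 2 months, 1.68 ± 0.26 in 24 against 2 months and -0.69 ± 0.26 in 24 against 12 months. At 2 months Fabp4 ranked between 4357 and 6520 among the genes tested, and at 12 months between 1424 and 1864. At 24 months it ranked between 2213 and 2743.

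Fabp3, the heart and muscle type fatty acid binding protein, lies at chr4:130308595-130315463 on the plus strand (ENSMUSG00000028773.8, 4 exons), and this annotated start falls inside the window printed above. It stood at 37.9, 32.7 and 24.7 TPM at 2 months, 19.2, 20.8 and 18.5 TPM at 12 months, and 24.4, 54.9 and 23.2 TPM at 24 months. Every 12 month library lay below every library of the other ages, and the 2 and 24 month libraries overlapped. Means were 31.8 ± 6.63, 19.5 ± 1.16 and 34.2 ± 17.9 TPM (SD, n = 3), and the wide SD at 24 months comes with the 54.9 TPM of library 2. The difference was -0.66 ± 0.29 (SE) in 12 against 2 months, 0.01 ± 0.29 in 24 against 2 months and 0.67 ± 0.29 in 24 against 12 months. Without library 2 of 24 months, the values became -0.38 in 24 against 2 months and 0.28 in 24 against 12 months. Leaving out library 3 of 2 months gave -0.15 in 24 against 2 months. Fabp3 was the only one of the 4 genes tested whose difference between 24 and 2 months changed sign under an alternative.

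Crabp2, which carries retinoic acid to the nucleus, lies at chr3:87948666-87953376 on the plus strand (ENSMUSG00000004885.5, 4 exons), far from the Fabp genes of that chromosome. Its values were 14.5, 14.6 and 25.2 TPM at 2 months, 63.0, 77.8 and 46.0 TPM at 12 months, and 112, 98.1 and 45.8 TPM at 24 months. All 6 libraries of the later ages exceeded all of 2 months, but 12 and 24 months overlapped, with library 3 of 24 months the lowest of these 6. Means were 18.1 ± 6.12, 62.3 ± 15.9 and 85.3 ± 34.9 TPM (SD, n = 3). The difference was 1.74 ± 0.33 (SE) in 12 against 2 months, 2.12 ± 0.33 in 24 against 2 months and 0.38 ± 0.33 in 24 against 12 months. The last value was 0.14 without library 1 of 24 months and 0.77 without library 3. Crabp2 ranked between 4423 and 5855 at 2 months, 1789 and 2901 at 12 months, and 1412 and 2927 at 24 months.

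Crabp1, the cytosolic retinoic acid carrier whose promoter window is printed above, lies at chr9:54764748-54773110 on the plus strand (ENSMUSG00000032291.8, 4 exons). It was listed at 0, 0.910 and 0.413 TPM at 2 months, 0, 4.48 and 0.151 TPM at 12 months, and 0, 1.30 and 0 TPM at 24 months. It was listed at 0 in 4 of the 9 libraries, and 2 libraries exceeded 1 TPM. The ages overlapped, and with levels this low no difference or mean is given. TPM keeps no depth, so how many reads lie behind these values is unknown.

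**Figure D2:**
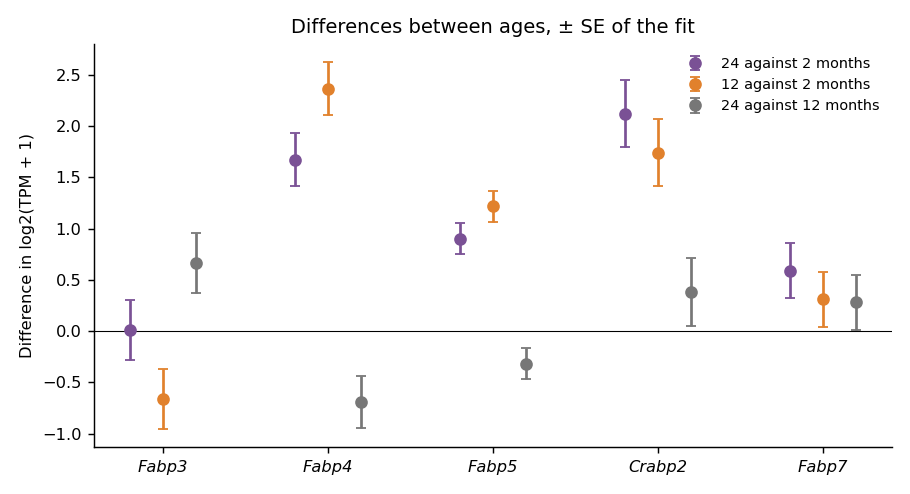
Difference in log2(TPM + 1) between ages (vertical axis) for the 4 members that were tested and for Fabp7, another family gene, as points with the SE of the fit. Fabp4, Fabp5 and Crabp2 lie above 0 in both comparisons with 2 months, Fabp3 lies at 0.01 in 24 against 2 months and at -0.66 in 12 against 2 months, and Fabp4 and Fabp5 lie below 0 in 24 against 12 months.

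The share of all genes tested whose libraries did not overlap is given beside the members, and as above nothing is read from it. In 24 against 2 months 11.2% of genes were higher without overlap and 8.97% lower, and Fabp4, Fabp5 and Crabp2 were among the higher. In 12 against 2 months 9.58% were higher, with the same 3 members, and 15.4% lower, with Fabp3. In 24 against 12 months 11.1% were higher, with Fabp3, and 6.14% lower, with Fabp4 and Fabp5. The median difference of all genes was -0.02 in 24 against 2, -0.07 in 12 against 2 and 0.07 in 24 against 12 months.

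Across 17 alternative settings, Fabp4 ranged from 1.42 to 1.95 in 24 against 2 months and from 2.12 to 2.65 in 12 against 2 months. Fabp5 ranged from 0.82 to 1.03 and from 1.15 to 1.34 in the same comparisons, and Crabp2 from 1.88 to 2.52 and from 1.55 to 1.99. The direction held in all 17 for these 3 genes, but the call across all genes did not. Since the later ages did not overlap 2 months, leaving out a library could not turn the sign. The filter and the trend left the difference itself unchanged, so the steady direction adds no support. The calls below describe how the fit moved and, given how the members were chosen, are no test of them. Fabp4 was called in 9 of 17 settings in 24 against 2 months and in 16 of 17 in 12 against 2 months. Fabp5 was called in 5 and 15, and Crabp2 in 8 and 8. In 24 against 2 months, the call of all 3 genes ended when any of 5 libraries was left out, namely 1 and 3 at 2 months, 3 at 12 months, and 1 and 2 at 24 months. Leaving out library 2 of 2 months ended that of Fabp5 (1.03) and Crabp2 (2.00). In 12 against 2 months, leaving out any library of either age ended the call of Crabp2, with differences of 1.57 to 1.99, and no single library ended that of Fabp4 or Fabp5. Without library 1 of 24 months, the differences in 24 against 2 months were 1.79 for Fabp4, 0.98 for Fabp5, 1.88 for Crabp2 and 0.19 for Fabp3, and none of these was called.

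The order of the members by TPM differed with age. Fabp5 was first and Crabp1 last in all 9 libraries. At 2 months Fabp3, Crabp2 and Fabp4 shared the places between, in a different order in each library, and their ranges overlapped. At 12 months all 3 libraries gave Fabp4, Crabp2 and then Fabp3, although the ranges of Fabp4 and Crabp2 overlapped. At 24 months Fabp3 was next to last in every library, as at 12 months, although in library 2 it lay close to Fabp4 (54.9 and 55.4 TPM). Crabp2 stood above Fabp4 in libraries 1 and 2 of 24 months and below it in library 3. The ratio of Fabp4 to Fabp3 in TPM averaged 0.566, 4.67 and 1.89 at 2, 12 and 24 months.

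Set against the whole family, the 5 members carried most of its RNA. Of 16 family genes listed, 15 had a row, and their TPM summed to 269, 343 and 272 at 2 months, 712, 706 and 665 at 12 months, and 574, 671 and 564 at 24 months. Both later ages lay above 2 months without overlap, and 12 and 24 months overlapped, with means of 295 ± 41.7, 694 ± 25.8 and 603 ± 59.5 TPM (SD, n = 3). Of that sum Fabp5 made up 71.6 ± 1.01%, 70.8 ± 4.63% and 65.6 ± 6.17% (SD, n = 3) from the youngest age to the oldest. Fabp4 held 5.75 ± 1.51%, 13.1 ± 3.06% and 9.24 ± 1.84%, and Crabp2 held 6.30 ± 2.62%, 8.93 ± 2.05% and 14.1 ± 5.72%. Fabp3 held 10.9 ± 2.76%, 2.81 ± 0.122% and 5.52 ± 2.30%. FABP5 and CRABP2 are both carriers of retinoic acid to nuclear receptors, and the ratio of Fabp5 to Crabp2 in TPM was 12.6 ± 4.73, 8.23 ± 2.02 and 5.46 ± 3.07 at the 3 ages. At 24 months that ratio was 3.14, 4.30 and 8.93 in libraries 1 to 3, so the ages overlapped.

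**Figure D3:**
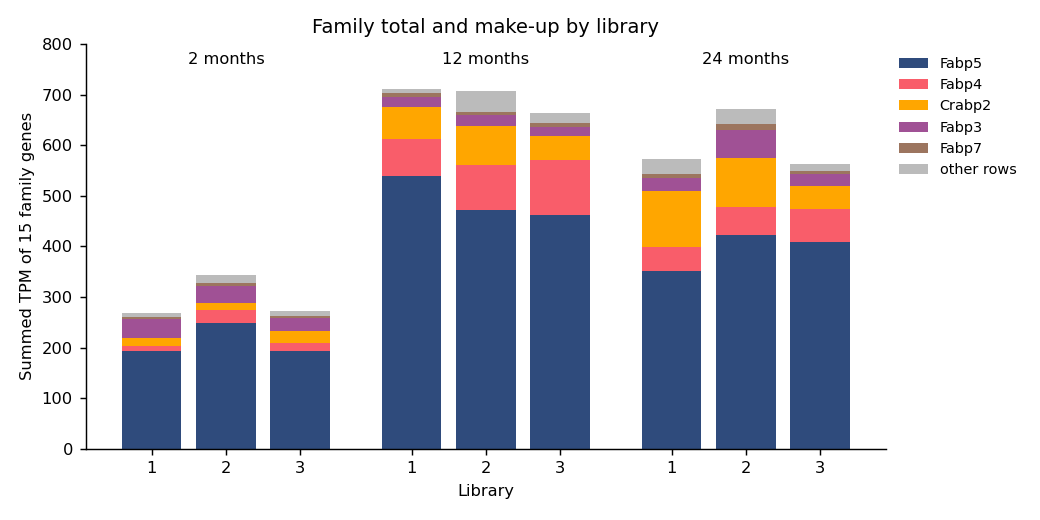
Summed TPM of the 15 family genes with a row (vertical axis, starting at 0) in each library, stacked by gene, with the libraries grouped by age. Fabp5 is the largest block in every library, and the sums run from 269 to 343 at 2 months, 665 to 712 at 12 months and 564 to 671 at 24 months.

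Of the other family genes with a row, 10 in all, 2 passed the filter and limma called neither of these. Fabp7, the brain type fatty acid binding protein, stood at 5.29 ± 1.26, 6.71 ± 0.536 and 8.57 ± 2.45 TPM (SD, n = 3) and did not pass the test (24 against 2 months, 0.59 ± 0.27, limma adjusted p = 0.340). Fabp1, Fabp2 and Fabp6, known from liver and intestine, were listed at 0 in all 9 libraries. Fabp9, Fabp12, Pmp2, Rbp2 and Rbp7 were below the filter, the highest value being 2.20 TPM, for Rbp7. Rbp5 had no row.

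Fabp5 and Fabp4 are neighbours in the genome. The genes Fabp5, Pmp2, Fabp9, Fabp4 and Fabp12 lie in that order within 288.6 kb of chromosome 3. Between the nearest edges of Fabp5 and Fabp4 lie 187 kb. The 3 genes Pmp2, Fabp9 and Fabp12 of the same cluster stayed below the filter, with at most 1.62, 1.92 and 0.257 TPM in any library. The 5 members share a gene plan of 4 coding exons. The second coding exon was 173 bases in Fabp3, Fabp4 and Fabp5 and 179 bases in Crabp1 and Crabp2, and the coding sequences ran from 132 codons (Fabp4) to 138 codons (Crabp2). Identity of the coding bases was taken over all columns of the alignment, gaps included. This identity was 70.3% between Crabp1 and Crabp2, 65.1% between Fabp3 and Fabp4, and 60.5% between Fabp4 and Fabp5. It was lowest, 47.5%, between Fabp5 and Crabp1.

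Salmon divides reads between transcripts with a common sequence, so words of 31 bases were compared with the transcripts of all other genes. Fabp4, Crabp1 and Crabp2 shared none. Fabp5 shared 33.1% of its words with 5 genes, Fabp5l2 and 4 gene models, whose summed level was at most 1.48 TPM in any library. Fabp3 shared 50.1% of its words, 279 of them with the pseudogene Fabp3-ps1, which reached at most 0.782 TPM. Fabp3 also overlaps Zcchc17, a gene of the opposite strand, by 81 bases, and shared 51 words with it. Zcchc17 stood between 34.9 and 60.3 TPM, a level like that of Fabp3, and no source used here gives the strand of counting. The part of read sharing in the Fabp3 values was not tested.

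Plotted over the 9 libraries, Fabp4 and Fabp5 lay close to a line, with a Pearson r of 0.965 on the log2 scale. Taken as deviations from the mean of each age, the same r was 0.536. Crabp2 had an r of 0.769 with Fabp5 and 0.734 with Fabp4 over all libraries, and of -0.33 and -0.38 within ages. Fabp3 had an r of -0.48 with Fabp4, -0.39 with Fabp5 and -0.16 with Crabp2 over all libraries. These are descriptions over 9 points that share their age and their library, and the values over all libraries include the difference between ages itself.

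**Figure D4:**
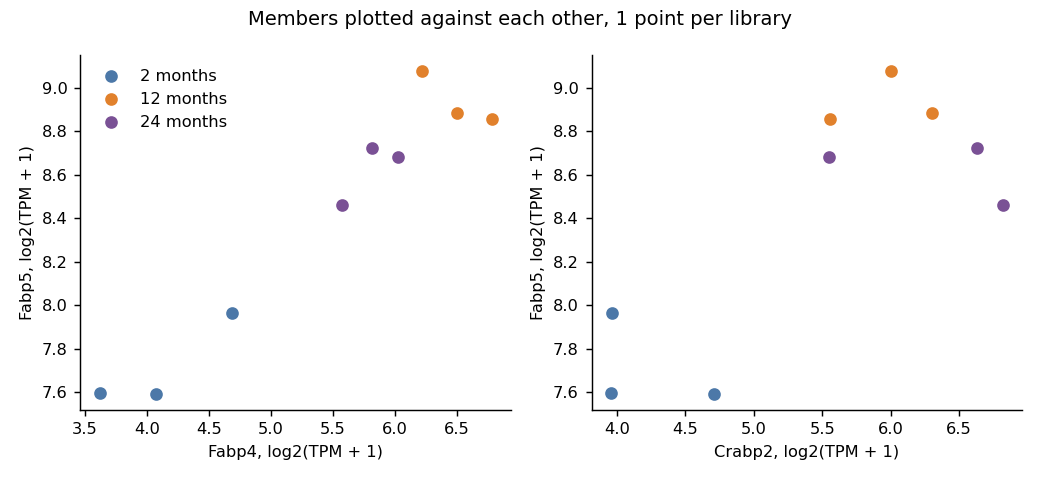
Fabp5 against Fabp4 (left) and against Crabp2 (right), in log2(TPM + 1) on both axes, 1 point per library, coloured by age. The 2 month points lie at the lower left in both panels, and at 24 months the library with the highest Crabp2 has the lowest Fabp5.

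Genes with the most similar pattern were sought among 8248 candidates with a mean of at least 5 TPM, by Pearson r over the same 9 libraries. Gene models, Rik clones, pseudogenes and mitochondrially encoded genes were left out of the candidates. So were ribosomal protein genes with numbered Rpl, Rps, Mrpl or Mrps names. For Fabp4 these were Psma6, a proteasome subunit (r = 0.984), Trappc4, a subunit of a vesicle tethering complex (0.971), and Fabp5 (0.965). The nearest to Fabp5 were Psma6 (0.976), Fabp4 (0.965) and Trappc4 (0.962). Psma6 stood at 164, 219 and 196 TPM on average at 2, 12 and 24 months, so it shared the order of the ages with Fabp4 at a smaller ratio. For Crabp2 they were Duoxa1, a maturation factor of a dual oxidase (0.955), Ssu72, a phosphatase of RNA polymerase II (0.953), and Nnmt, nicotinamide N-methyltransferase (0.951), which averaged 13.6, 37.4 and 34.9 TPM. For Fabp3 they were Atp6v0c, a subunit of the vacuolar proton pump (0.910), Socs1, an inhibitor of cytokine signalling (0.894), and Map2k2, a kinase of the MAPK cascade (0.880). None of the 3 nearest genes to Crabp2 or Fabp3 was another member. These r values are the highest of 8248 over 9 points and include the differences between ages. Taken as deviations from the mean of each age, r with Fabp4 was 0.876 for Psma6, 0.652 for Trappc4 and 0.536 for Fabp5. With Fabp5 it was 0.807 for Psma6 and 0.476 for Trappc4. For the genes nearest to Crabp2 it ran from 0.765 to 0.881, and for those nearest to Fabp3 from 0.810 to 0.859.

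The other genes of fatty acid and retinoid handling were read from the same fit. Lists of the other family genes and of supply, receptors, targets, uptake, oxidation and storage held 147 genes with a row, of which 104 were tested. In 24 against 2 months limma called 0 of these, with 21 at an unadjusted p under 0.05. In 12 against 2 months it called 1 higher and 2 lower (35 at an unadjusted p under 0.05), and in 24 against 12 months 0 higher and 2 lower (21). Among all 14501 genes, 2103, 2267 and 2051 had an unadjusted p under 0.05 in 24 against 2, 12 against 2 and 24 against 12 months. This background also holds for the lists below, and the shares called are given above. The lists were chosen with earlier results known, so nothing is read from these counts.

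**Figure D5:**
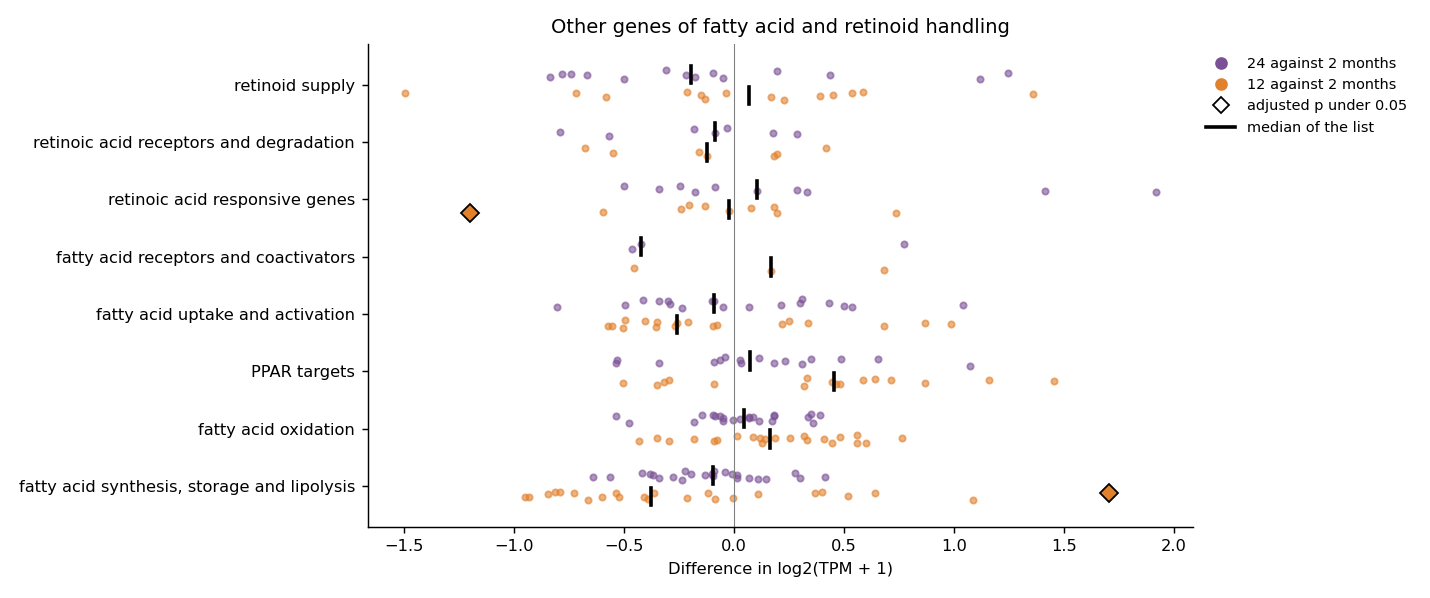
Difference in log2(TPM + 1) (horizontal axis) of tested genes of the pathway lists in 24 against 2 and 12 against 2 months, 1 point per gene, with a bar at the median of all tested genes of each list and diamonds for calls at an adjusted p under 0.05. The diamonds, all in 12 against 2 months, are Tgm2 at -1.20 and G0s2 at 1.70.

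Among genes of retinoid supply, 14 were tested, with medians of -0.20 in 24 against 2 and 0.07 in 12 against 2 months. In these comparisons limma called 0 of them, with 5 and 4 at an unadjusted p under 0.05. Rbp4, the carrier of retinol in blood, averaged 1082 ± 139, 1585 ± 306 and 689 ± 156 TPM (SD, n = 3) at 2, 12 and 24 months, and fell by 1.21 ± 0.20 in 24 against 12 months (limma adjusted p = 0.0273). Its call held in 10 of 17 settings, and it ended without the 12 month library 1 (-1.11) or 3 (-1.13) or the 24 month library 1 (-1.22) or 2 (-1.36). Aldh1a3, an enzyme that makes retinoic acid, stood at 46.5, 30.7 and 60.9 TPM at 2 months, 23.0, 9.54 and 15.5 TPM at 12 months, and 20.5, 26.3 and 27.1 TPM at 24 months. The 12 and 24 month libraries of Aldh1a3 lay below all of 2 months, but the difference in 12 against 2 months, -1.49 ± 0.31, did not pass the test (limma adjusted p = 0.0534). Aldh1a1, another such enzyme, stood the other way, at 0.771, 1.00 and 0.330 TPM at 2 months, 0.297, 1.42 and 2.41 TPM at 12 months, and 7.62, 1.23 and 2.26 TPM at 24 months. Its 24 month libraries lay above those of 2 months, and its difference of 1.24 ± 0.50 did not pass the test (limma adjusted p = 0.295). Adh7, an alcohol dehydrogenase that can oxidise retinol, reached at most 0.730 TPM at 2 months and lay between 1.39 and 2.96 TPM at the later ages. Its differences of 1.36 ± 0.34 in 12 against 2 months and 1.12 ± 0.34 in 24 against 2 months did not pass the test (limma adjusted p = 0.0882 and 0.204). Aldh1a2, which also makes retinoic acid, and Stra6, the cell surface receptor of RBP4, stayed below the filter.

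Of 7 receptor and degradation genes of retinoic acid that were tested, 0 were called in any comparison by limma, with 2, 2 and 0 at an unadjusted p under 0.05 in 24 against 2, 12 against 2 and 24 against 12 months. Their medians were -0.09, -0.12 and -0.06. The receptor Rarg stood at 35.9 ± 3.33, 22.0 ± 1.35 and 23.9 ± 1.60 TPM at the 3 ages (SD, n = 3), a difference of -0.68 ± 0.16 in 12 against 2 months that did not pass (limma adjusted p = 0.0834). Rxra, the shared partner of retinoid and PPAR receptors, had -0.79 ± 0.23 in 24 against 2 months (limma adjusted p = 0.183), and Cyp26b1, which degrades retinoic acid, had -0.09 ± 0.23 (limma adjusted p = 0.890). Among 11 tested genes known to respond to retinoic acid, Tgm2, a transglutaminase, fell by 1.20 ± 0.20 in 12 against 2 months (limma adjusted p = 0.0229), from 76.9 ± 11.3 to 33.2 ± 7.23 TPM. The medians of that list were 0.11 in 24 against 2 and -0.02 in 12 against 2 months, with 3 and 2 at an unadjusted p under 0.05. In 24 against 2 months 6 differences were positive and 5 negative. Rarres2 (1.92) and Hic1 (1.42) were among the positive ones and were not called (limma adjusted p = 0.278 for both). The call of Tgm2 held in 10 of 17 settings and was lost without any 1 library of 2 months (-1.30 to -1.09), or without library 2 (-1.03) or 3 (-1.22) of 12 months.

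Of the fatty acid receptors, Pparg averaged 0.336 ± 0.294, 1.16 ± 0.549 and 1.29 ± 0.560 TPM at the 3 ages (SD, n = 3) and was not called (24 against 2 months 0.77 ± 0.35, limma adjusted p = 0.341). Ppard, the receptor that FABP5 can deliver to, stood at 3.41 ± 0.871, 2.46 ± 1.51 and 2.19 ± 0.514 TPM and was not called (-0.46 ± 0.38, limma adjusted p = 0.599). Ppara was below the filter. Of 16 tested PPAR target genes other than the members, limma called 0 in every comparison, with 3, 6 and 3 at an unadjusted p under 0.05. Their median was 0.07 in 24 against 2 months, 0.45 in 12 against 2 months, where 11 of 16 differences were positive, and -0.27 in 24 against 12 months. Angptl4, a secreted inhibitor of lipoprotein lipase, averaged 74.5, 220 and 163 TPM at 2, 12 and 24 months (12 against 2 months 1.46 ± 0.36, limma adjusted p = 0.0872). Pdk4, a brake on glucose oxidation, had 1.16 ± 0.27 (limma adjusted p = 0.0791), and Ech1, an enzyme of fatty acid oxidation, 0.72 ± 0.15 (limma adjusted p = 0.0535).

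Among genes of fatty acid uptake and activation, 19 were tested, with a median of -0.26 in 12 against 2 months. Cd36, a fatty acid transporter, reached at most 4.24 TPM in any library and was not called, and neither was Lpl. The 22 tested genes of fatty acid oxidation had medians of 0.05 and 0.17 in 24 against 2 and in 12 against 2 months, where limma called 0 genes, with 3 and 8 at an unadjusted p under 0.05. The 24 tested genes of synthesis, storage and lipolysis had medians of -0.09 and -0.37, with 1 and 12 at an unadjusted p under 0.05, and 7 of the 24 were positive in 12 against 2 months. Dgat2, an enzyme of triglyceride synthesis, was 1 of these 7 (1.09 ± 0.30, limma adjusted p = 0.115). The call in that comparison was G0s2, an inhibitor of the lipase that opens lipid droplets. It stood at 40.5, 50.5 and 47.8 TPM at 2 months, 152, 145 and 161 TPM at 12 months, and 71.2, 54.3 and 47.6 TPM at 24 months. G0s2 rose by 1.70 ± 0.17 in 12 against 2 months (limma adjusted p = 0.00201), in 17 of 17 settings, and fell by 1.40 ± 0.17 in 24 against 12 months (limma adjusted p = 0.012), in 11 of 17. The latter call needed the 12 month libraries 1 (-1.40 without it) and 3 (-1.37) and the 24 month library 2 (-1.37). Plin2, which coats lipid droplets, stood at 37.5, 59.4 and 37.2 TPM on average and was not called (12 against 2 months 0.64 ± 0.20, limma adjusted p = 0.154).

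Markers of other cell types that carry these proteins were read in the same libraries. The 8 adipocyte markers summed to 1.74 to 3.46 TPM at 2 months, 1.67 to 4.12 at 12 months and 0.581 to 2.63 at 24 months, with 1 of 8 tested and not called (limma, 0 at an unadjusted p under 0.05). Lep was at 0 in all libraries, Adipoq did not exceed 0.231 TPM and Plin1 did not exceed 0.522 TPM. Lipe, the 1 adipocyte marker tested, stood at 0.967 to 1.31 TPM at 12 months and reached 2.80 TPM in a 2 month library, and Cfd reached 2.56 TPM in 1 library of 12 months and was at 0 in the other 2. The part of adipocytes in the Fabp4 values was not tested. The 11 markers of adipogenic stroma summed to 1621 to 1939, 1286 to 1671 and 1501 to 2366 TPM at the 3 ages, with overlap, and Cebpb alone held 1054 to 2113 TPM. Limma called 0 of 9 tested, with 2 at an unadjusted p under 0.05 in 24 against 2 and 2 in 12 against 2 months. Of these 9, Cxcl12 (means 11.2 and 59.8 TPM) and Pparg were higher without overlap in 24 against 2 months. In 12 against 2 months Cebpd was higher without overlap, and Cebpb and Esm1 were lower. The part of these cells in the Fabp4 values was not tested. The 12 endothelial markers summed to 12.0 to 26.4, 14.5 to 49.3 and 27.1 to 47.2 TPM, so that 24 months lay above 2 months. Of these, 8 were tested and none was called by limma (0 at an unadjusted p under 0.05 in 24 against 2 months and 1 in 12 against 2 months). Egfl7 (means 3.11 and 7.09 TPM) and Gpihbp1 (0.805 and 2.82 TPM) were higher without overlap in 24 against 2 months. Pecam1 (2.11 and 3.26 TPM) was so in 12 against 2 months. The other endothelial markers overlapped in both comparisons, and Cdh5 and Kdr reached at most 0.766 and 0.586 TPM. The 13 macrophage markers summed to 9.25 to 15.6, 15.02 to 39.8 and 15.5 to 45.6 TPM, with 5 tested and none called by limma (1 and 2 at an unadjusted p under 0.05), and Ptprc and Adgre1 reached at most 0.281 and 0.298 TPM. Tyrobp, an adaptor protein of myeloid cells, was listed at 0, 0.539 and 0 TPM at 2 months, 1.45, 5.34 and 3.33 TPM at 12 months, and 7.72, 2.73 and 2.19 TPM at 24 months, higher without overlap at both later ages as Fabp4 was, and did not pass the test (limma adjusted p = 0.092 in 12 against 2 and 0.125 in 24 against 2 months). C1qb, a complement subunit, was at 0 in all 2 month libraries, at 1.28, 6.12 and 2.37 TPM at 12 months and at 0, 0.573 and 1.00 TPM at 24 months (limma adjusted p = 0.0726 in 12 against 2 months). Lyz2, the most abundant marker of this list, overlapped between ages. The summed macrophage level at 24 months overlapped that of 2 months only at its lower end, and the part of both lists in the Fabp4 and Fabp5 values was not tested. The 6 osteoclast markers summed to 173 to 202 TPM at 2 months, 228 to 268 at 12 months and 233 to 359 at 24 months, without overlap with 2 months, and their part was not tested. Most of the osteoclast sum was Ctsk, at 157 to 175, 210 to 241 and 215 to 325 TPM. Ctsk and Acp5 were higher without overlap at both later ages. Mmp9 overlapped and differed the other way (-0.73 in 24 against 2 and -1.50 in 12 against 2 months). Limma called 0 of 3 tested, with 2 and 3 at an unadjusted p under 0.05 in these comparisons. Calcr was at 0 in all libraries, and Ocstamp and Dcstamp reached at most 0.467 and 0.435 TPM.

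For Fabp3, the 12 skeletal muscle markers summed to 54.8 to 67.3, 46.5 to 56.9 and 71.8 to 96.6 TPM, with Myh2, Myog and Myod1 at 0 in all libraries. Of 6 muscle markers tested limma called 0, with 4 at an unadjusted p under 0.05 in 24 against 2 months, and their part in the Fabp3 values was not tested. For Fabp5, the 9 keratinocyte markers summed to 16.5 to 30.1, 16.9 to 25.1 and 16.9 to 26.7 TPM. Krt5, Krt1 and Ivl were at 0. Most of the sum was Krt10, at 12.4 to 23.7 TPM, which overlapped between ages. Sfn, the other marker tested, was lower without overlap in 24 against 2 (-1.31) and 12 against 2 months (-1.05). Limma did not call it (adjusted p = 0.168 and 0.183). Trp63, at most 0.434 TPM, was also lower without overlap in both. The part of keratinocytes in the Fabp5 values was not tested. Smooth muscle and pericyte markers summed to 180 to 295, 154 to 488 and 499 to 1126 TPM, so that 24 months lay above both other ages. Of 9 tested genes limma called 1 higher in 24 against 2 months, Actg2, named after its values were seen. In 24 against 2 and 12 against 2 months, 7 and 2 of these had an unadjusted p under 0.05. The part of these cells in the member values was not tested. The 9 chondrocyte markers, led by Col2a1, summed to 57231 to 64822 TPM at 2 months, 30563 to 40764 at 12 months and 25717 to 45526 at 24 months, lower at both later ages without overlap with 2 months. Of these 9 markers limma called 0, with 9 and 4 at an unadjusted p under 0.05 in 24 against 2 and 12 against 2 months. Their part in the member values was not tested. Under scaling by the median of ratios, which a few abundant genes do not set, the differences in 12 against 2 months were 2.46 ± 0.24 (SE) for Fabp4, 1.32 ± 0.16 for Fabp5, 1.84 ± 0.35 for Crabp2 and -0.57 ± 0.30 for Fabp3. In 24 against 2 months they were 1.68 ± 0.24, 0.91 ± 0.16, 2.12 ± 0.35 and 0.01 ± 0.30 in the same order.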

How the data were processed

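Salmon and the build GRCm38.p6 are named in the submitters' processing notes. No source used here gives Salmon's version, the annotation release or how transcripts were summed to genes. The deposited log2 values turned back to TPM columns with 1 common total, so they were read as log2(TPM + 1). TPM keeps no depth, so no count model or counting interval was used.

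Genes at 1 TPM or more in at least 3 of 9 libraries were kept. One model with age as a factor was fitted to the 9 libraries with limma 3.58.1 in R 4.3.3 (eBayes with an intensity trend, two-sided, 6 residual degrees of freedom), and a call is a Benjamini-Hochberg adjusted p under 0.05 over all 14501 genes. The log2(TPM + 1) scale understates differences of low genes. The fit was tested on simulated data. Coordinates, exons, coding bases and words of 31 bases came from GENCODE M21 transcripts, promoters from RefSeq, and coding identity from global alignment in biopython 1.88. The planned comparison of proteins was not run.

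The members, gene lists and tests were chosen with earlier results of these data known. Named genes were all members and family genes with a row, a set of receptors, enzymes and carriers, and genes called or of smallest p in each list. The 3 candidates of highest r to each member were also named, and not all named genes are described. Alternatives changed the offset (0.1, 5), the filter (none, 5 TPM), the scaling (quantile, median of ratios), the intensity trend and the libraries in the fit. Single values of 2 genes that the naming rule covers are not reported here.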

Additional observations from a re-analysis of the deposited data

How the results depend on the processing

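No paired analysis was possible because no replicate number is given in the column names, so the planned replicate block was not run. Fabp4, Fabp5 and Crabp2 kept their direction against 2 months under all 17 settings, which the lack of overlap largely fixed in advance. The number of genes called by limma is 23 in 24 against 2 months, and it was 5 with an offset of 0.1, 3 without the intensity trend and 44 with only the 6 libraries of the 2 ages. Without a filter limma called 0 there, with 2745 genes at an unadjusted p under 0.05. Leaving out 1 library gave 1 to 438, the lowest without library 1 of 24 months (or 3 of 2 months) and the highest without library 3 of 24 months. In 12 against 2 months the count is 105, and it was 57 at an offset of 0.1, 8 with no filter, 15 with no trend, 305 with 6 libraries and 17 to 244 with 1 library left out. In 24 against 12 months the count is 66, and it was 43 at an offset of 0.1, 100 under the median of ratios, 4 with no trend, 2 with 6 libraries and 2 to 346 with 1 library left out. Without a filter limma called 0, with 2808 at an unadjusted p under 0.05. The cause of these moves was not tested.

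Fabp3 changed sign in 24 against 2 months, from 0.01 to -0.15 without library 3 of 2 months and to -0.38 without library 2 of 24 months. Alternatives were read for the members and the named pathway genes alone, and in 24 against 12 months only for those named genes that were called. Among these, the other differences that changed sign belonged to pathway genes that were not called. Under quantile scaling these were Ech1 (-0.062) and Cd36 (0.12) in 24 against 2 months and Rara (0.010) in 12 against 2 months, and under the median of ratios Hadh (0.019) in 12 against 2 months. With 1 library left out, signs changed in 24 against 2 months for Acsl3 (-0.11 to 0.20), Cd36 (-0.34 to 0.36), Ech1 (-0.067 to 0.14), Ffar4 (-0.80 to 0.21), Lpl (-0.044 to 0.57), Plin2 (-0.24 to 0.087) and Rara (-0.53 to 0.046), and in 12 against 2 months for Cav1 (-0.056 to 0.41), Ffar4 (-0.14 to 0.40), Rara (-0.47 to 0.10) and Rarres2 (-0.64 to 0.73).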
